A study of Arabidopsis thaliana with 24 samples.

Results

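Proteins of the cytosolic ribosome are encoded in the Arabidopsis nucleus by small gene families, and 60 such genes were followed here through root and shoot time courses of osmotic stress. They were taken by a list of gene identifiers, and all 60 were among the 18240 genes of the deposited table. The list held 25 genes of the small (40S) subunit and 35 of the large (60S) subunit, in 31 families, 22 of them with at least 2 listed paralogues and 9 with 1. RefSeq product names of 59 of the 60 named a ribosomal protein, and the other gene, AT3G49010, is known as RPL13 under an older name, breast basic conserved 1.

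The tested seedlings were wild-type Columbia-0, 7 days old, held in 30% polyethylene glycol (PEG) of average molecular weight 8000 for 1, 2 or 3 h. PEG in the medium withdraws water from plants without entering them, and the solution used stood at -2.0 MPa and pH 5.8. The controls were seedlings of the same kind held in water for 1 h, so that water was sampled at 1 time only. Roots and shoots were parted after treatment and gave 3 libraries in each of the 8 groups, from 30 to 50 pooled seedlings a replicate. Transcripts were counted by MARS-seq, which reads 1 tag from the 3′ end of each captured transcript, so counts were not divided by gene length. Levels are given as CPM, counts scaled to a common library size. A call means an adjusted p under 0.05 in edgeR's quasi-likelihood test, adjusted over all genes tested.

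Most ribosomal proteins coat the ribosomal RNA and are needed in equal numbers per ribosome. Most Arabidopsis families have several active copies, and the sum of the copies is kept high in growing and dividing tissue such as the root tip. Their promoters are known for the telo box, AAACCCTAA, and for site II elements, TGGGCC or TGGGCT, which are also found before genes of the cell cycle and of ribosome assembly. TOR kinase promotes both the transcription and the translation of these genes when nutrients allow growth.

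Site II elements stood in the promoters of 48 of the 60 genes (80.0%), counting either strand of the 250 bases before and the 50 bases after the annotated start. The share over 27443 nuclear protein-coding genes was 21.7%. A telo box stood in 16 of the 60 (26.7%), against 3.60% of all promoters, and 13 members (21.7%) held both, against 1.29%. A plain TATAAA was found in 58.3% of the members and in 52.1% of all promoters. Both strands were searched, and matches of the motifs may share bases. Site II was in 31 of the 40 members called higher in roots and in 13 of the 16 called lower, and a telo box in 13 and 3 of them. Promoters of a paralogue pair, RPL18, that differed strongly between the organs and of a gene with 5 site II elements, the most in any member and also reached by an RPL9 and an RPS15 gene, are printed here, 250 bases up to the start, read by identifier from the RefSeq TAIR10.1 genome. The build behind the counts may differ. Capitals mark telo boxes and site II elements.
RPL18 (AT3G05590), chr3:1621105-1621354, plus strand: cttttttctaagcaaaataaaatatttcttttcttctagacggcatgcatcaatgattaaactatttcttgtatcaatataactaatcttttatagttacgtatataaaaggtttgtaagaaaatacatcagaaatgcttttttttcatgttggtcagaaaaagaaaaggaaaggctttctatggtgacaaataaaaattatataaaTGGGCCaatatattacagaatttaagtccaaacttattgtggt
RPL18 (AT5G27850), chr5:9872817-9873066, plus strand: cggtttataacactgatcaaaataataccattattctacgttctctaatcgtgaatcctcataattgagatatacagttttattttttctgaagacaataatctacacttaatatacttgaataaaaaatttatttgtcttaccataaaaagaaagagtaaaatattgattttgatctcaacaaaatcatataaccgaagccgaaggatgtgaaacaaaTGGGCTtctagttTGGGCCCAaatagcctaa
RPL24B (AT3G53020), chr3:19662026-19662275, minus strand: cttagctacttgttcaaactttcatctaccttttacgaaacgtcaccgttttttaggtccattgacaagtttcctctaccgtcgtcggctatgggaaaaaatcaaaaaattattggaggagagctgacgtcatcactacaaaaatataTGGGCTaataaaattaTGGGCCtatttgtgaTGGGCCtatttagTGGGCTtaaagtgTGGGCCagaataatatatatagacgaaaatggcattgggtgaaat

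In the RPL18 pair the copy that was low in roots, AT5G27850, held 4 site II elements over the whole 300 bases searched and the abundant copy, AT3G05590, held 3. Of these, 3 and 1 lie in the printed bases, and the rest lie after the start. RPL24B, also called SHORT VALVE1, is known for its part in translation after upstream reading frames. In water RPL24B had 1598.5, 1756 and 1926 CPM in root libraries, against 548, 341 and 501 CPM in shoot libraries. AT3G05590 had 1717, 1972 and 2008 CPM in root libraries, against 549, 380 and 529 CPM in shoot libraries. AT5G27850 had 24.2, 18.5 and 15.45 CPM in root libraries, against 274, 191 and 255 CPM in shoot libraries.

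Library totals ran between 1332586 and 5495746 counts in roots and between 343397 and 4009409 in shoots, the lowest being replicate 2 of shoots after 2 h of PEG. Markers matched the organ labels, as all 12 root markers tested were higher in root libraries (median log2 fold change 6.71, water) and all 24 photosynthesis markers lower (median -7.16). Photosynthesis markers took 0.132 to 0.257% of counts in root libraries and 15.6 to 18.9% in shoot libraries. The 60 ribosomal protein genes took 5.92 ± 0.244% of all counts in root libraries in water (SD, n = 3), 7.06 ± 0.735% after 1 h of PEG, 6.65 ± 0.444% after 2 h and 6.87 ± 0.29% after 3 h. In shoots they took 2.46 ± 0.396% in water, 2.1 ± 0.0964% after 1 h, 1.77 ± 0.155% after 2 h and 2.0 ± 0.0839% after 3 h. Shoot libraries of 1 h (1.99 to 2.17%) and of 3 h (1.95 to 2.1%) overlapped those in water (2.05 to 2.84%). Those of 2 h (1.6 to 1.9%) lay below water. Every root library lay above every shoot library, and every root library under PEG lay above the highest water library of roots at 6.1%. On the TMM scale of the tests within roots the highest water library had a summed level of 63550.5 CPM. Below it lay 3 root PEG libraries, 1 of 2 h and 2 of 3 h, at 58688 to 63250.0 CPM. On the scale of the joint fit with shoots, root water libraries ran from 63207.7 to 70371.6 CPM. Those of 1 h of PEG ran from 61319.9 to 77224.7 CPM there. Those of 2 h ran from 61999.8 to 70852.2 CPM and those of 3 h from 67750.6 to 75499.1 CPM, so each time overlapped water. In bulk tissue fewer cells of a type and less RNA per cell cannot be told apart.

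**Figure D1:**
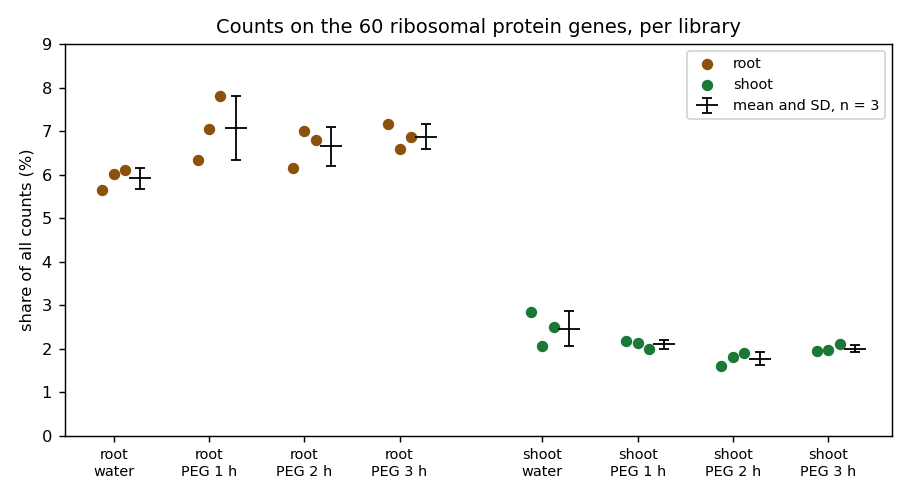
Share of all counts that fell on the 60 ribosomal protein genes, in percent, for each library (points) by organ and treatment, with the mean and SD of 3 libraries. Root libraries lie between 5.64 and 7.8%, and shoot libraries between 1.6 and 2.84%.

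The first comparison set roots against shoots in water. Of the 60 members, 40 were higher in roots and 16 lower, against a background of 37.8% of all 15472 genes tested called higher and 47.6% called lower. The median log2 fold change, root over shoot, was 1.59 for the members and -0.50 for all genes. Of 14 dividing cell markers tested in the same comparison, 2 were higher in roots and 10 lower, with a median of -2.42. Their part in the member values was not tested. Both subunits held genes of either kind, with 16 higher and 8 lower of 25 members of the 40S and 24 higher and 8 lower of 35 of the 60S. With DESeq2 size factors in place of TMM the median of all genes stood at -0.74, and 39 members were higher and 18 lower.

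**Figure D2:**
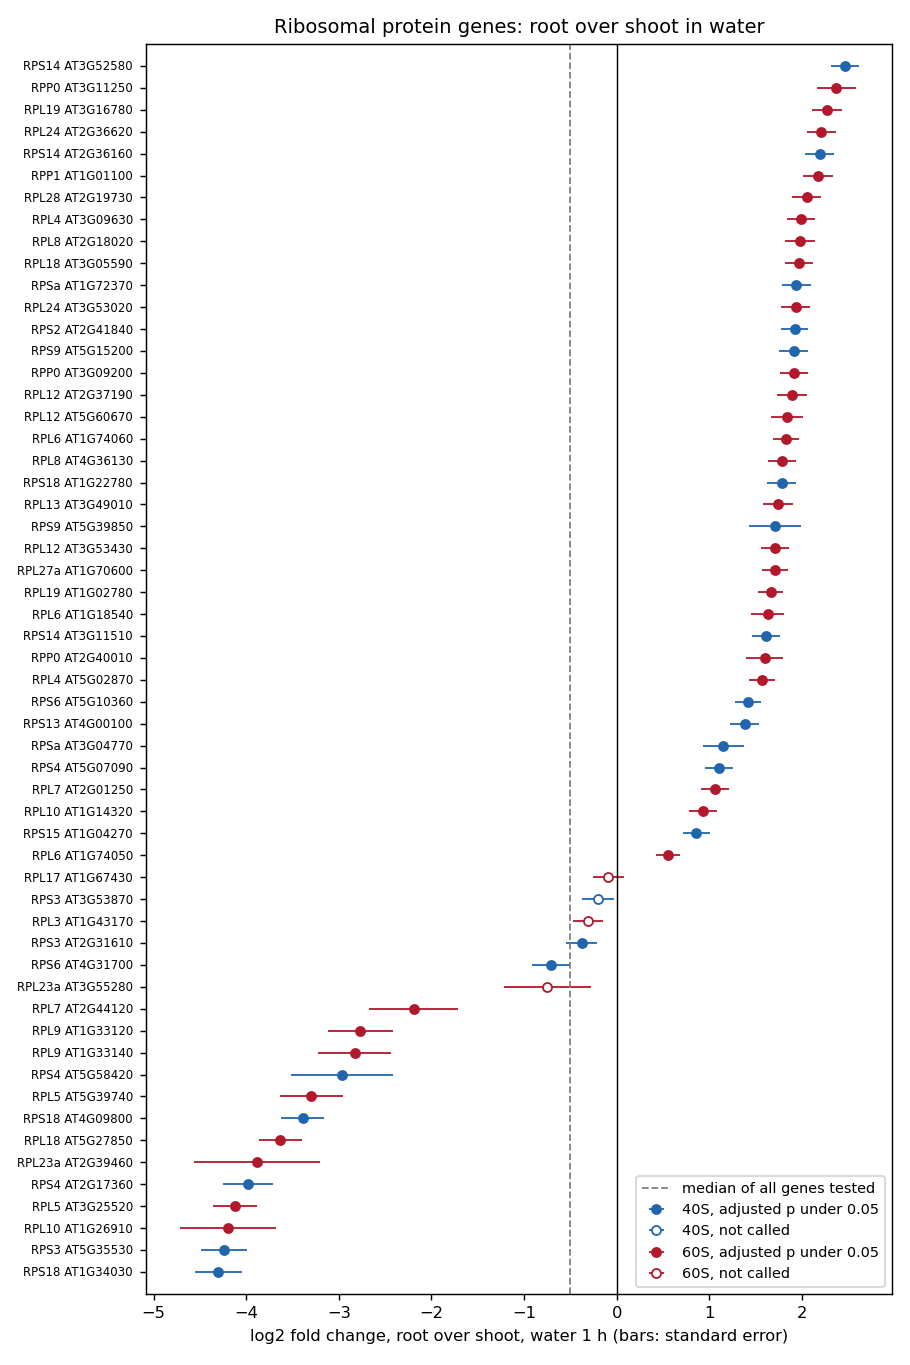
Log2 fold change of 56 ribosomal protein genes, root over shoot in water (points, with standard error), ordered by value, in blue for 40S and red for 60S, filled where the adjusted p was under 0.05; the dashed line is the median of all genes tested at -0.50. A group of 13 genes lies between -4.30 and -2.19, apart from the 37 that are higher in roots.

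Members with the highest mean CPM over all libraries are given next. Root libraries weigh most in that mean, so the choice itself favours genes higher in roots. RPL19 (AT1G02780), at the subunit interface, had 4928, 5165 and 5457 CPM in root libraries, against 1856, 1352 and 1697 CPM in shoot libraries in water (log2 fold change 1.66 ± 0.14, adjusted p = 7.1e-13). RPS9 (AT5G15200), which binds small-subunit RNA early in assembly, had 4247, 4504 and 4774 CPM in root libraries, against 1422, 889 and 1293 CPM in shoot libraries. RPL8 (AT2G18020), which lies near the peptidyl transferase centre, had 3362, 3934 and 3668 CPM in root libraries, against 1065, 709 and 1006 CPM in shoot libraries. None of these 3 genes overlapped between the organs, and their log2 fold changes lay between 1.66 and 1.98.

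The largest rises came from 5 families of both subunits. RPS14 (AT3G52580), a protein of the small-subunit platform, had 562, 583 and 658 CPM in root libraries, against 125, 92.5 and 111 CPM in shoot libraries (log2 fold change 2.46 ± 0.15, adjusted p = 1.6e-16). Genes of the stalk that binds elongation factors, RPP0 (AT3G11250) and RPP1 (AT1G01100), stood at 2.37 and 2.17 on the log2 scale, and RPL24A (AT2G36620) at 2.21. RPL19 (AT3G16780) and RPS14 (AT2G36160) completed the 6 largest, at 2.27 and 2.19.

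Of the 16 genes lower in roots, 14 had a log2 fold change under -2. RPS6 (AT4G31700) and RPS3 (AT2G31610) differed less. The latter had 107, 163 and 165.5 CPM in root libraries, against 208, 143 and 215.5 CPM in shoot libraries, with overlap. Its call was kept in 3 of 6 fits that left out 1 library. The RPS18 gene AT1G34030 had 4.08, 4.62 and 6.18 CPM in root libraries, against 111, 89.4 and 96.7 CPM in shoot libraries (log2 fold change -4.30 ± 0.25, adjusted p = 4.6e-17). The pattern was alike in the RPS3 gene AT5G35530, in RPL10B (AT1G26910) and in the RPL5 gene AT3G25520, with log2 fold changes of -4.24, -4.20 and -4.12. RPL10B reached at most 2.81 CPM in any root library and was the 1 member not tested within roots, where it did not pass the filter on low counts.

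Family sums showed whether another listed copy was abundant where 1 was low in roots. The listed RPL18 genes summed to 1919 ± 154 CPM in roots and 726 ± 135 CPM in shoots and those of RPS18 to 990.1 ± 90.3 CPM in roots and 565 ± 100 CPM in shoots (mean ± SD, n = 3 each, water). The RPL5 family, which carries the 5S ribosomal RNA into the large subunit, summed to 47.5 ± 6.38 CPM in roots and 611 ± 89.1 CPM in shoots. The RPL9 family, a tandem pair at the base of the stalk, summed to 76.1 ± 14.4 CPM in roots and 533 ± 66.6 CPM in shoots. RPL23a, at the exit of the peptide tunnel, summed to 22.9 ± 2.44 CPM in roots and 304 ± 78.7 CPM in shoots. Both listed members of RPL5 and of RPL9 were called lower in roots, as was RPL23aA (AT2G39460), while RPL23aB (AT3G55280) was not called (log2 fold change -0.75 ± 0.47, adjusted p = 0.14). The other family sums lay between 0.708 and 4.49 times the shoot level, RPS3 lowest and RPP1 highest. Sums hold listed genes only. Root water libraries had code digit 5 and shoot water libraries 4, and with the digit as a term 32 members were higher in roots and 16 lower.

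Paralogue ratios within a library do not depend on how libraries are scaled, and 36 pairs could be formed within the 22 families. Organ labels were exchanged within each treatment in an exact two-sided permutation test of the mean log2 ratio over all 24 libraries, whose smallest possible p is 1.25e-05. The ratio differed between root and shoot in 32 of 36 pairs at an unadjusted p under 0.05, and 20 pairs reached the smallest p. In 18 pairs no root library overlapped any shoot library. In 10 pairs the difference exceeded 2 on the log2 scale. Root and shoot libraries of the same treatment never shared a code digit, so organ and digit cannot be told apart in this test.

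The widest gap was in RPS18. The log2 ratio of AT1G22780, known as POINTED FIRST LEAF, to AT1G34030 was 7.45 ± 0.49 in the 12 root libraries, ranging from 6.36 to 8.55, against 1.51 ± 0.27 in the 12 shoot libraries, ranging from 1.20 to 2.06 (mean ± SD). For RPL18, AT3G05590 over AT5G27850, it was 6.30 ± 0.62 in the 12 root libraries, ranging from 5.08 to 7.10, against 0.84 ± 0.18 in the 12 shoot libraries, ranging from 0.53 to 1.05. The same RPS18 gene over RPS18C (AT4G09800) differed by 5.13 between root and shoot. In the RPL10 pair, AT1G14320 over RPL10B, the log2 ratio lay between 8.48 and 12.7 in root libraries and between 4.88 and 5.67 in shoot libraries. RPL10B had 0 counts in 3 root libraries, where the added 0.5 sets the ratio, so no size of this difference is given. The RPS4 pair AT2G17360 over AT5G07090 differed by -4.71. Each of these 5 pairs had an exact p of 1.25e-05.

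The 4 pairs that missed the threshold had the following values. The log2 ratio of the RPL8 pair, AT2G18020 over AT4G36130, was 2.66 ± 0.1 in the 12 root libraries, ranging from 2.52 to 2.78, against 2.69 ± 0.12 in the 12 shoot libraries, ranging from 2.48 to 2.86 (exact p = 0.575). The RPL12 pair AT2G37190 over AT3G53430 differed by 0.06 between root and shoot (exact p = 0.324) and the RPL6 pair AT1G18540 over AT1G74060 by -0.03 (exact p = 0.623). The last of the 4, the RPSa pair AT1G72370 over AT3G04770, differed by -0.43 (exact p = 0.0541). Sequence similarity at the 3′ end could let reads of 2 copies mix, which was not tested. The longest run shared in the last 500 bases of the transcripts was 57 bases, in the RPL8 pair. It was followed by RPL9 with 49 bases and the RPS3 pair AT2G31610 and AT3G53870 with 43.

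**Figure D3:**
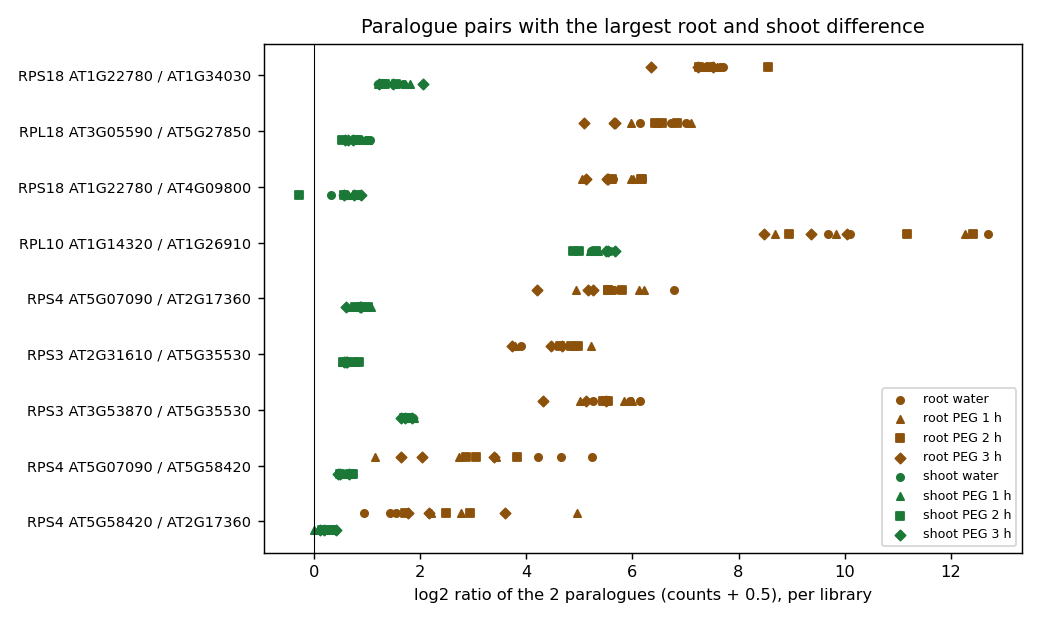
Log2 ratio of 2 paralogues (counts + 0.5) in each library for 9 pairs whose mean differed by more than 2 between root (brown) and shoot (green), with symbols for the treatment; each pair is written so that the ratio is larger in roots. Root and shoot libraries do not overlap in any of the 9 pairs.

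Under PEG, the ribosomal protein genes called in roots rose and those called in shoots fell. In roots 13 of the 59 members tested (22.0%) were called higher after 1 h, 6 (10.2%) after 2 h and 21 (35.6%) after 3 h. At no time was a member called lower in roots. The background of genes called higher was 11.5% of 10941 at 1 h, 12.7% at 2 h and 21.1% at 3 h, while 9.06%, 12.3% and 19.5% were called lower. At 2 h the share of members called higher was thus below the background. In shoots 0 of 60 were called after 1 h, 40 were called lower after 2 h and 19 after 3 h, with 0 called higher. The background of genes called lower in shoots was 1.07% of 13769 at 1 h, 5.65% at 2 h and 11.5% at 3 h, and 4.25%, 8.19% and 14.5% were called higher. At 1 h in shoots DESeq2 also called 0 members, and 13 had an unadjusted p under 0.05 in edgeR.

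**Figure D4:**
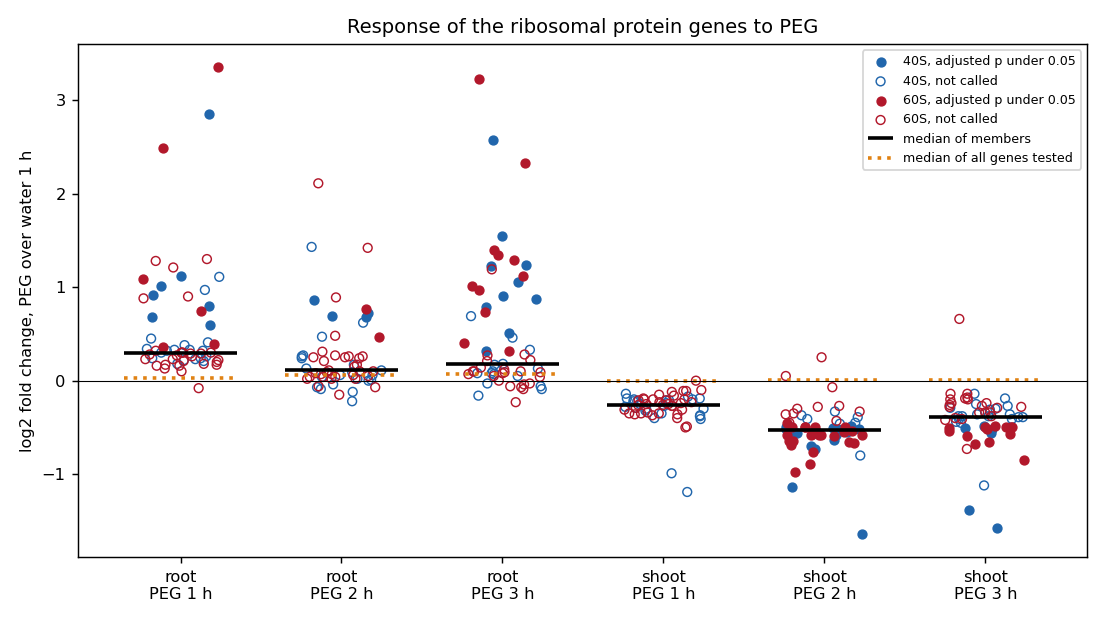
Log2 fold change of each ribosomal protein gene, PEG over water, by organ and time (points; blue 40S, red 60S; filled where the adjusted p was under 0.05), with the median of the members (black) and of all genes tested (orange, dotted). Filled points lie above 0 in roots and below 0 in shoots, and the steepest root values reach 3.35 at 1 h and 3.23 at 3 h.

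In roots the members leaned upward, most of them by little. Of 59 members, 58 had a positive log2 fold change at 1 h, 50 at 2 h and 49 at 3 h, and 32, 11 and 24 had an unadjusted p under 0.05 in edgeR. Median log2 fold changes were 0.30, 0.11 and 0.18 at 1, 2 and 3 h, beside 0.03, 0.06 and 0.07 for all genes. In the authors' deposited values the member medians were 0.24, -0.01 and 0.09, so that median did not lean upward at 2 h. The 4 most abundant genes did not pass the test at any time. RPL19 (AT1G02780) had 4523, 4726 and 4928 CPM in water, 4808, 4908 and 6579 CPM after 1 h of PEG, 4326, 5146 and 5132 CPM after 2 h and 5067, 4482 and 4658 CPM after 3 h. Replicate 3 at 1 h was its highest library and also the shallowest of the roots at 1332586 counts, and the libraries of each PEG time overlapped water.

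RPSAb (AT3G04770), the minor gene for a small-subunit protein related to the animal laminin receptor, rose at all 3 times. It had 21.97, 20.9 and 24.6 CPM in water, 41.1, 42.2 and 45.9 CPM after 1 h of PEG, 35.9, 42.1 and 45.6 CPM after 2 h and 45.5, 41.8 and 29.7 CPM after 3 h, so that every PEG library lay above every water library. Log2 fold changes were 0.92 ± 0.17, adjusted p = 0.00086 at 1 h, 0.86 ± 0.17, adjusted p = 0.00077 at 2 h and 0.79 ± 0.16, adjusted p = 0.00092 at 3 h. The abundant paralogue, AT1G72370, was not called at any time (0.32, 0.06 and -0.03).

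Moderately expressed genes of both subunits rose as well. RPL3 (AT1G43170), which reaches into the peptidyl transferase centre, had 323, 421 and 457 CPM in water, 638, 1033 and 891 CPM after 1 h of PEG, 736, 642 and 667 CPM after 2 h and 680.5, 801 and 872 CPM after 3 h. All 9 PEG libraries lay above the 3 water libraries, and the log2 fold change was 1.09 ± 0.16, adjusted p = 0.00015 at 1 h, 0.77 ± 0.16, adjusted p = 0.002 at 2 h and 0.97 ± 0.16, adjusted p = 0.00017 at 3 h. RPS3 (AT2G31610), at the entry of the messenger RNA channel, had 98.4, 149 and 149.5 CPM in water, 219, 299 and 286 CPM after 1 h of PEG, 228, 221 and 206 CPM after 2 h and 237, 246 and 241 CPM after 3 h, without overlap between PEG and water (1.01 ± 0.15, adjusted p = 7.9e-05 at 1 h, 0.72 ± 0.15, adjusted p = 0.0012 at 2 h and 0.87 ± 0.15, adjusted p = 0.00013 at 3 h). RPL17 (AT1G67430), which lines the exit tunnel, was also called at all times (0.74 ± 0.15, 0.47 ± 0.15 and 0.73 ± 0.15). RPS6 (AT4G31700), the protein phosphorylated downstream of TOR, had 326, 424 and 429 CPM in water, 557, 1189 and 824 CPM after 1 h of PEG, 718, 611 and 562 CPM after 2 h and 712, 808 and 945 CPM after 3 h. Its log2 fold change was 1.12 ± 0.23, adjusted p = 0.004 at 1 h, 0.68 ± 0.23, adjusted p = 0.043 at 2 h and 1.06 ± 0.23, adjusted p = 0.0026 at 3 h.

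The steepest rises came from genes that stood at 40.4 CPM or less in water and scattered widely under PEG. RPL23aA (AT2G39460) had 15.98, 18.5 and 21.2 CPM in water, 47.2, 386 and 125 CPM after 1 h of PEG, 102, 78.8 and 58.2 CPM after 2 h and 55.01, 172 and 295 CPM after 3 h. The RPS4 gene AT5G58420 had 27.96, 40.4 and 23.2 CPM in water, 74.7, 421 and 155 CPM after 1 h of PEG, 102, 90.6 and 51.9 CPM after 2 h and 81.9, 181 and 279 CPM after 3 h, and the RPL7 gene AT2G44120 had 16.7, 24.8 and 19.99 CPM in water, 51.1, 204 and 81.7 CPM after 1 h of PEG, 81.3, 40.4 and 40.05 CPM after 2 h and 55.9, 98.3 and 155 CPM after 3 h. For each of the 3 genes replicate 2 was the highest at 1 h and replicate 3 at 3 h, and no PEG library overlapped water. Log2 fold changes at 1 h and 3 h were 3.35 ± 0.89, adjusted p = 0.031 and 3.23 ± 0.88, adjusted p = 0.019 for RPL23aA, 2.85 ± 0.73, adjusted p = 0.026 and 2.57 ± 0.71, adjusted p = 0.021 for RPS4, and 2.49 ± 0.63, adjusted p = 0.025 and 2.33 ± 0.62, adjusted p = 0.016 for RPL7. At 2 h none of the 3 was called. Without replicate 2 at 1 h the values of that time were 2.08, 1.81 and 1.6 in the same order, and without replicate 3 at 3 h those of that time were 2.62, 2.12 and 1.92, none of them called. Photosynthesis markers had summed levels of 1392 CPM in replicate 2 at 1 h and 1606 CPM in replicate 3 at 3 h, within the 1373 to 1713 CPM of root water libraries. Dividing cell markers were highest in the same libraries, with summed levels of 80.6 CPM in replicate 2 at 1 h beside 67.2 and 65.5 CPM, and 93.6 CPM in replicate 3 at 3 h beside 82.7 and 89.9 CPM, against 61.7, 52.6 and 48.6 CPM in water. Their part in these values was not tested.

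At 3 h further low-level copies rose, among them RPL23aB at 1.40 ± 0.44, adjusted p = 0.017 and the RPL9 gene AT1G33120 at 1.34 ± 0.46, adjusted p = 0.044. Across the root calls, 7 of 13 at 1 h, 3 of 6 at 2 h and 7 of 21 at 3 h were kept in each fit that left out 1 library, and RPL3, RPS3 AT2G31610 and RPSAb were kept at every time. Without a single water library the 1 h count was 7 in each case, as it was without PEG replicate 2, and the 3 h count was 12 and 10 without water replicates 1 and 3. The 2 h count was 3 without water replicate 2. Root water libraries and replicate 1 at 1 h of PEG shared the first digit of the library code, 5, and all other root PEG libraries had 6, so treatment and code digit cannot be told apart at 2 h and 3 h. With the digit as a term RPL3, RPS3 AT2G31610 and RPSAb stayed called at 1 h, and 0 members at 2 h and 3 h.

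**Figure D5:**
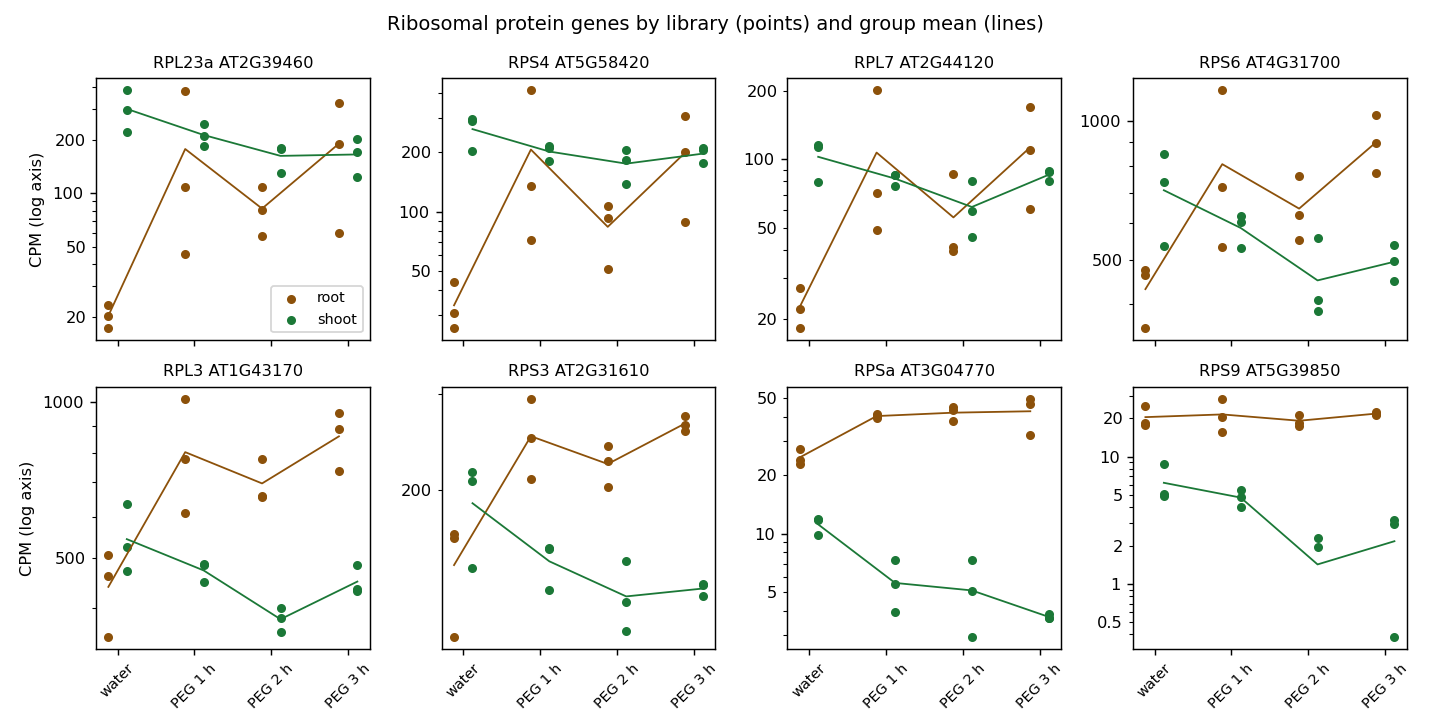
Levels of 8 ribosomal protein genes in each library (points) and group means (lines), in CPM of the joint fit on log axes, by treatment, in root (brown) and shoot (green). The shoot library of RPS9 AT5G39850 at 0, replicate 2 of 2 h, cannot be drawn on a log axis but is in the mean. RPSa AT3G04770 rises in root and falls in shoot, and RPL23a, RPS4 and RPL7 rise in root with wide scatter.

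In shoots the members leaned downward at each time. All 60 members had a negative log2 fold change at 1 h, 58 at 2 h and 59 at 3 h, with medians of -0.26, -0.53 and -0.39 beside medians within 0.01 of 0 for all genes. RPL23aA had 396, 229 and 305 CPM in water, 216, 256 and 192 CPM after 1 h of PEG, 134, 184 and 189 CPM after 2 h and 176, 129.6 and 209.7 CPM after 3 h. The PEG libraries of 2 h and 3 h lay below all water libraries, with log2 fold changes of -0.89 ± 0.21, adjusted p = 0.0087 at 2 h and -0.85 ± 0.21, adjusted p = 0.0043 at 3 h. RPS14 (AT3G11510) had 537, 349 and 477 CPM in water, 335, 352 and 339 CPM after 1 h of PEG, 263, 264 and 295 CPM after 2 h and 301, 274 and 352 CPM after 3 h (-0.73 ± 0.16, adjusted p = 0.0049 at 2 h and -0.56 ± 0.16, adjusted p = 0.012 at 3 h). Every library of 2 h lay below water, and at 3 h the highest PEG library overlapped the lowest water library.

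A pair of low-level copies had the largest falls. RPSAb had 12.4, 10.2 and 12.02 CPM in water, 5.63, 7.54 and 4.11 CPM after 1 h of PEG, 3.04, 5.27 and 7.58 CPM after 2 h and 3.95, 3.83 and 3.79 CPM after 3 h, and the log2 fold change was -1.14 ± 0.35, adjusted p = 0.032 at 2 h and -1.57 ± 0.32, adjusted p = 0.00087 at 3 h. The PEG libraries lay below water at every time. The RPS9 gene AT5G39850 had 9.03, 5.08 and 5.20 CPM in water, 4.14, 5.66 and 4.99 CPM after 1 h of PEG, 2.02, 0 and 2.39 CPM after 2 h and 0.395, 3.06 and 3.29 CPM after 3 h (-1.64 ± 0.52, adjusted p = 0.04 at 2 h and -1.38 ± 0.43, adjusted p = 0.022 at 3 h), and its PEG libraries of 2 h and 3 h lay below water. In the shallow replicate 2 of 2 h 3 counts correspond to 8.74 CPM, so the values of both genes there rest on fewer counts than that. RPP0 (AT3G11250) and RPL6 (AT1G18540) followed at 2 h with -0.98 and -0.76, with RPL23aA between them. RPP0 stood at 2.64 CPM in the same shallow library, also under 3 counts. At 3 h RPL12 (AT5G60670), RPL6 (AT1G18540) and RPL19 (AT3G16780) followed with -0.68, -0.66 and -0.59.

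Among the abundant genes, RPL8 (AT2G18020) had 1104, 733 and 1034 CPM in water, 833, 998 and 762 CPM after 1 h of PEG, 667, 640.4 and 738 CPM after 2 h and 782, 719.7 and 859.5 CPM after 3 h and fell at 2 h (-0.49 ± 0.16, adjusted p = 0.049), although the water and PEG libraries overlapped. Water replicate 1 was the highest shoot library for 51 of the 60 members, and their summed level there was 29312 CPM, against 19828 and 26060 CPM in the other water libraries. Without it 1 member was called at 2 h and 2 at 3 h. Without water replicate 3 the counts were 12 and 8, and without water replicate 2 the count at 3 h was 39. Leaving out PEG replicate 1 gave 4 at 2 h and 6 at 3 h, and leaving out PEG replicate 2 gave 19 at 2 h and 3 at 3 h. RPS14 AT3G11510 at 2 h, and RPL23aA and RPSAb at 3 h, were the members called in each of these fits. The fit with a replicate block called 26 at 2 h. Shoot water libraries had code digit 4 and those of 3 h digit 5, so treatment and digit cannot be told apart at 3 h except through replicate 3 of 2 h, also 5. With the digit as a term 46 members were called at 2 h, among them 37 of the 40, and 14 at 3 h, among them 10 of the 19.

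Between 3 h and 1 h of PEG 0 members were called in either organ, where 5.58% of root genes were called higher and 8.58% lower, and 2.06% and 1.63% of shoot genes. DESeq2 also called 0 in both, and 11 members in roots and 2 in shoots had an unadjusted p under 0.05 in edgeR.

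An interaction term over all 24 libraries tested whether roots and shoots responded differently. It was positive, meaning a higher change in roots, for all 11 members called at 1 h, all 12 at 2 h and all 33 at 3 h. The background called positive was 2.72%, 3.35% and 10.1% of 15472 genes, and 5.16%, 4.16% and 6.73% were called negative. Median differences on the log2 scale were 0.35, 0.58 and 0.72 for the members beside -0.16, -0.01 and 0.16 for all genes. RPSAb differed by 1.69 ± 0.33, adjusted p = 0.0012 at 1 h, 1.91 ± 0.36, adjusted p = 0.00085 at 2 h and 2.36 ± 0.34, adjusted p = 9.0e-06 at 3 h, and stayed called with the code digit as a term at all 3 times, when 1, 1 and 3 members in all were called. RPL3 differed by 1.07, 1.18 and 1.24 and RPS3 AT2G31610 by 1.14, 1.19 and 1.39 at the same times, all of them called in every fit that left out 1 library. The abundant gene RPL19 AT1G02780 was not called (0.20 ± 0.19, adjusted p = 0.53 at 3 h). With root and shoot libraries of the same treatment and letter as a replicate block, 6, 9 and 28 members were called at 1, 2 and 3 h. Without shoot water replicate 1 the counts were 6, 6 and 19 at 1, 2 and 3 h. At 1 h the count was 5 without root PEG replicate 2 and 17 without root PEG replicate 1. At 2 h it was 7 without shoot PEG replicate 1, 45 without shoot PEG replicate 3, 27 and 22 without shoot water replicates 2 and 3, 21 and 24 without root water replicates 2 and 3, and 21 without root PEG replicate 2.

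Paralogue balance under PEG was compared between 3 h and water over both organs, with labels exchanged within each organ (exact two-sided permutation test, smallest possible p 0.005). In 6 of 36 pairs from 4 families the unadjusted p was under 0.05. The log2 ratio of RPL18, AT3G05590 over AT5G27850, changed by -0.76 averaged over the organs, -1.16 in roots and -0.36 in shoots (exact p = 0.005). In the RPS4 family AT5G07090 over AT5G58420 changed by -1.21 (exact p = 0.02), of which -2.35 in roots and -0.08 in shoots, and AT2G17360 over AT5G07090 changed by 0.64 (exact p = 0.015), of which 1.15 in roots and 0.13 in shoots. RPL6, AT1G74060 over AT1G74050, changed by -0.18 (exact p = 0.015) with like values in roots and shoots, -0.23 and -0.14. Another RPL6 pair, AT1G18540 over AT1G74050, changed by -0.26 (exact p = 0.04), -0.23 in roots and -0.30 in shoots. RPP0, AT3G09200 over AT3G11250, changed by 0.31 (exact p = 0.025), 0.05 in roots and 0.57 in shoots. The values are not adjusted over the 36 pairs. In both organs the water libraries and those of 3 h differed in code digit, so treatment and digit cannot be told apart in this test.

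Genes for ribosome assembly and for translation factors were set beside the ribosomal proteins. At 1, 2 and 3 h 11.5%, 12.7% and 21.1% of all genes tested were called higher in roots. Those called lower in roots were 9.06%, 12.3% and 19.5%. In shoots 4.25%, 8.19% and 14.5% of all genes were called higher and 1.07%, 5.65% and 11.5% lower. Of 21 ribosome assembly genes tested in roots, 4, 7 and 9 rose at 1, 2 and 3 h and 0 fell, with medians of 0.26, 0.30 and 0.49. Of 22 tested in shoots, 1, 6 and 9 fell and 0, 0 and 1 rose. Fibrillarin 2 (FIB2, AT4G25630), which guides methylation of ribosomal RNA, had 556, 533 and 417 CPM in roots after 3 h of PEG, against 306, 278 and 290.1 CPM in water (0.78 ± 0.13, adjusted p = 0.00013). In shoots it had 22.9, 29.6 and 34.6 CPM after 3 h of PEG, against 87.97, 51.1 and 66.6 CPM in water (-1.22 ± 0.25, adjusted p = 0.0016). The dyskerin gene NAP57 (AT3G57150), for pseudouridine in ribosomal RNA, fell in shoots at 2 h (-1.32 ± 0.19, adjusted p = 5.7e-05).

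Of 24 translation factor genes tested in each organ, 5, 5 and 8 rose in roots and 0, 1 and 2 fell at 1, 2 and 3 h. In shoots 0, 10 and 2 fell and 0 rose. RACK1C (AT3G18130), a scaffold protein bound to the 40S subunit, rose in roots at 3 h (0.68 ± 0.12, adjusted p = 0.0003) and fell in shoots at 2 h (-1.07 ± 0.19, adjusted p = 0.00058). In shoots the elongation factor 2 gene LOS1 (AT1G56070) fell at 2 h (-0.73 ± 0.17, adjusted p = 0.0063).

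Plastid ribosomal proteins, encoded in the nucleus for the chloroplast's own ribosome, gave 4, 1 and 5 rises and 0, 0 and 1 falls among 25 tested in roots. Among 32 in shoots 0, 2 and 11 fell and 0 rose, RPL21C (AT1G35680) by -0.69 ± 0.14, adjusted p = 0.0011 at 3 h. Of 8 markers of dividing cells tested in roots 2, 2 and 6 rose, and of 14 in shoots 0 were called. Of 12 root markers tested in roots 5, 8 and 8 fell and 1 rose, at 3 h. The part of these markers in the ribosomal protein changes was not tested. Of 5 TOR and GCN2 genes tested in roots 1 fell at each time and 0 rose, and of 8 in shoots 0, 2 and 2 rose and 0 fell, with medians between -0.10 and 0.11. RAPTOR1 (AT3G08850), a partner of TOR kinase, fell in roots at all 3 times, at 3 h with a log2 fold change of -0.77 ± 0.12, adjusted p = 7.6e-05, and the S6 kinase gene PK1 (AT3G08730), whose product phosphorylates RPS6, rose in shoots at 2 h (0.77 ± 0.25, adjusted p = 0.049).

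The authors' deposited table called 14, 6 and 18 of the 60 genes higher in roots at 1, 2 and 3 h of PEG. The same table, the authors' deposited table, called 1, 34 and 26 lower in shoots, and 0 the other way in either organ. Among all 18240 genes it called 2081, 2463 and 4212 in roots at 1, 2 and 3 h, counting both directions. In shoots these counts over all genes were 780, 1812 and 3530.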

How the data were processed

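Raw counts per gene were deposited by the authors for all 24 libraries, with size-factor normalized signal values, regularized log2 values, and log2 fold changes and p-values of their own tests. Per the submitters' processing notes the tools were bcl2fastq, cutadapt, STAR 2.4.2a, HTSeq and DESeq2. The genome build and any collapsing of molecular identifiers are not given in the sources used here, so a count may stand for a read or a molecule.

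The counts were tested in R 4.3.3 with edgeR 4.0.16 (quasi-likelihood F test, robust, TMM scaling, filterByExpr), in 1 fit per organ of 12 libraries (8 residual degrees of freedom; 10941 genes in roots and 13769 in shoots). Roots and shoots were compared in a joint fit of all 24 libraries (16 residual degrees of freedom; 15472 genes). P-values were adjusted by the Benjamini-Hochberg method over all genes tested. Standard errors are the log2 fold change divided by the square root of F. CPM within an organ come from its own fit, and CPM set across organs from the joint fit. Paralogue ratios were log2 of counts plus 0.5 and were tested by exact permutation within strata. The edgeR and ratio procedures were tested on simulated data. DESeq2 1.42.0 and the other alternatives are given in the closing section.

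The members and gene lists were chosen with earlier results of these data known. Genes named with full values were all called members where 12 or fewer were called, otherwise the 6 largest changes each way, the 4 most abundant members, the paralogue pairs with the lowest p, and up to 4 genes of each other list, with some left out for length. A few members enter the counts but are not reported here by name. Other genes that the text singles out, such as those kept when a library was left out, were named after their values were seen. The labels call replicates biological, each a pool of seedlings. Counts of replicate libraries differed by more than sampling noise (chi-square per degree of freedom 2.87 to 10.2), so none was counted as a repeat. Total counts per library limit low genes, as 3 counts were 0.546 to 2.25 CPM in roots and 0.748 to 8.74 CPM in shoots. Floors cover counting error only.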

Additional observations from a re-analysis of the deposited data

Results flagged for a closer look

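Root and shoot responses to PEG differed by the interaction test (edgeR, Benjamini-Hochberg adjusted over all genes) for 11 members at 1 h, 12 at 2 h and 33 at 3 h, all with a higher change in roots. All values here are differences in log2 fold change, root minus shoot.

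At 1 h the differences included 3.64 for RPL23aA (AT2G39460), 3.03 for RPS4 (AT5G58420) and 2.6 for RPL7 (AT2G44120). RPSAb (AT3G04770) differed by 1.69, RPS6 (AT4G31700) by 1.18, RPS3 (AT2G31610) by 1.14 and RPL3 (AT1G43170) by 1.07. RPS3 (AT3G53870) differed by 0.78, and RPS15 (AT1G04270) and RPL17 (AT1G67430) by 0.75 each.

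At 2 h RPSAb came first with 1.91, and RPS6 (AT4G31700), RPS3 (AT2G31610) and RPL3 had 1.22, 1.19 and 1.18. RPL17 differed by 0.92, RPL6 (AT1G18540) by 0.9, RPL19 (AT3G16780) by 0.87 and RPL4 (AT5G02870) by 0.81. The 3 smallest called were RPL12 (AT5G60670) at 0.75, and RPL12 (AT3G53430) and RPL4 (AT3G09630) at 0.65 each.

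At 3 h the 4 largest were RPL23aA at 4.08, RPS4 (AT5G58420) at 2.99, RPL7 (AT2G44120) at 2.59 and RPSAb at 2.36. The 4 members kept at 1 h in each fit that left out 1 library were RPL3, RPS3 (AT2G31610), RPSAb and RPS4 (AT5G58420), and 5 and 17 members were kept at 2 h and 3 h.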

How the results depend on the processing

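With the first digit of the library code as a term, 3, 0 and 0 members were called in roots at 1, 2 and 3 h, 3 between 3 h and 1 h in roots, 1 in shoots at 1 h, and 1, 1 and 3 for the root minus shoot response. In roots the digit nearly parts PEG from water, so the term and the treatment cannot be told apart. In shoots the digit parts 3 h from water in the same way, and 46 and 14 members were called at 2 h and 3 h. Under it these values changed sign: RPS6 (AT4G31700) in roots at 2 h (-0.18), and in roots at 3 h RPL9 (AT1G33120, -0.31), RPL5 (AT3G25520, -0.12), RPS3 (AT5G35530, -0.03) and RPL5 (AT5G39740, -0.39). RPSAb (AT3G04770), root against shoot in water, was -0.02.

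Correlations of same-letter deviations between treatments ran between -0.161 and 0.2 in roots and between -0.367 and 0.387 in shoots. In roots 7 of 18 exceeded 0.1 (median 0.068), against 5 of 36 for other letters (median 0.005). In shoots 2 of 18 exceeded 0.1 (median -0.0655), against 11 of 36 for other letters (median 0.038). These values do not settle whether letters pair the treatments. Between root and shoot libraries of the same treatment and letter the correlations ran between -0.264 and 0.158. The labels do not say whether these came from the same pool. With such pairs as a replicate block, an alternative chosen after seeing the data, 6 members were called for the root minus shoot response at 1 h, 9 at 2 h and 28 at 3 h, and 55 for root against shoot. With the letter as a replicate block 26 members were called in shoots at 2 h and 1 between 3 h and 1 h in roots. With all 24 libraries in 1 fit, 2 were called between 3 h and 1 h in roots and 1 in shoots at 1 h. The DESeq2 Wald test called 19 for the root minus shoot response at 1 h, and without a filter on low counts edgeR called 22 at 2 h. The cause was not tested. DESeq2 size factors and scaling without the members moved no count by over 1.5 times.

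Leaving out 1 library gave 7 to 18, 3 to 5 and 10 to 18 calls in roots at 1, 2 and 3 h, and 0 to 4 between 3 h and 1 h. In shoots it gave 0 to 2, 1 to 51 and 2 to 39, and 0 between 3 h and 1 h. Root against shoot gave 55 to 58 (38 to 40 higher, 15 to 18 lower), and the root minus shoot response 5 to 17, 6 to 45 and 19 to 40. The paralogue ratio differed between organs in 27 to 30 pairs. For the ratio under PEG leaving out a replicate was not tested, as the smallest p is then 0.056. Of 2980 alternative values for named genes and pairs, 2423 kept direction and side of the threshold, 551 lost the call and 6 changed sign.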
